A study of Homo sapiens with 6 samples.

Results

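The 10 genes described here, VEGFA, ADM, SLC2A1, CA9, BNIP3, EGLN1, EGLN3, P4HA1, NDRG1 and ANKRD37, are classic targets of the hypoxia-inducible transcription factor HIF. They were chosen by name for that role, with earlier results of these data known. All 10 were found among the 58735 genes of the expression table. Their levels were compared between AGS cells given a small interfering RNA against RBM8A (siRBM8A) and AGS cells given the control siNC, both harvested 48 h after transfection. AGS is a widely used line from a human gastric adenocarcinoma. Each group held 3 replicates that the labels call biological. All 6 libraries were made from polyadenylated RNA of cells labelled wild type, grown in the same medium at 37 °C and transfected with Lipofectamine 2000, and all carried 1 batch label. No hypoxic culture was part of the design. The labels name neither the siRNA sequences nor a second siRNA, so an effect of losing RBM8A and an off-target effect of the siRNA cannot be told apart.

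HIF is a pair of proteins, an oxygen-labile alpha subunit (HIF1A or EPAS1) and the stable partner ARNT. With oxygen present, the prolyl hydroxylases EGLN1, EGLN2 and EGLN3 mark the alpha subunit, the VHL ubiquitin ligase binds it and the proteasome destroys it. Without oxygen the subunit persists, enters the nucleus and binds hypoxia response elements, whose core is A or G followed by CGTG. The targets raise glucose uptake, blood vessel growth, acid export and mitochondrial clearance, and EGLN1 and EGLN3 are themselves targets, which closes a feedback loop. RBM8A encodes Y14, one of the central subunits of the exon junction complex that is laid down on mRNA at splicing.

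The promoter windows of 4 members are shown because they span the range from the gene that rose most to the gene with the most core elements and the lowest expression. Windows run from 250 bases before to 50 after the annotated start (RefSeq, GRCh38.p14), 5′ to 3′ on the gene's strand, and capitals mark ACGTG and GCGTG on either strand, read as CACGT and CACGC on the opposite one.
ANKRD37, chr4:185396591-185396890, plus strand: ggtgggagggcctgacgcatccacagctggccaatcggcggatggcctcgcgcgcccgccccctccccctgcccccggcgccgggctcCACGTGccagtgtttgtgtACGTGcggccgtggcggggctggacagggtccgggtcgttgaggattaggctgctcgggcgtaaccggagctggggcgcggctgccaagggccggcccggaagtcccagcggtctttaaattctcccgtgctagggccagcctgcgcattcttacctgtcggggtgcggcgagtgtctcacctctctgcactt
ADM, chr11:10304823-10305122, plus strand: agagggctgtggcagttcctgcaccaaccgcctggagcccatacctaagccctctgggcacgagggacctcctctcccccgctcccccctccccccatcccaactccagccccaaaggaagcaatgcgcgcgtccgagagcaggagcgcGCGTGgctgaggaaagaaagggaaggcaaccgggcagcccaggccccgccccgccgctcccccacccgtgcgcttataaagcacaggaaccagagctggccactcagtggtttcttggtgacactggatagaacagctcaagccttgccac
EGLN1, chr1:231422238-231422537, minus strand: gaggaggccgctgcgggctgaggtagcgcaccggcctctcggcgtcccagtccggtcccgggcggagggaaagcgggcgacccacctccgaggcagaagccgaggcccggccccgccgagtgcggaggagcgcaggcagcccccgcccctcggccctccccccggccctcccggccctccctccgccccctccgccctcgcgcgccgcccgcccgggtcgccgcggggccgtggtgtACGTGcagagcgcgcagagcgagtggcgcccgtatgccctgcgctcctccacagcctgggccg
BNIP3, chr10:131981874-131982173, minus strand: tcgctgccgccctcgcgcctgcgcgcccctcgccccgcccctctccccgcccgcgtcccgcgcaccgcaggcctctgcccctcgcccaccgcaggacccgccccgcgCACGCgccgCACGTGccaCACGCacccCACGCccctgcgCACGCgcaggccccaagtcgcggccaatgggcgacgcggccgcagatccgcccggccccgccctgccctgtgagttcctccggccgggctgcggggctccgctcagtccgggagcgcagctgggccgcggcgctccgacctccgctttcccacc

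Of the 10 members, 8 were matched to a promoter window by symbol, all but VEGFA and NDRG1. ACGTG was present in 5 of the 8 windows, against 21.4% of 27305 windows of all genes, and GCGTG in 3 of the 8, against 35.9% of all windows. Either core was present in 7 of the 8, against 47.8% of all windows. ANKRD37 held 2 separate sites, one of them the palindrome CACGTG, in which ACGTG matches both strands. BNIP3 held 5 sites, of which 4 were GCGTG on the opposite strand and 1 was CACGTG. ADM, CA9, EGLN1, P4HA1 and SLC2A1 held 1 site each and EGLN3 held 0. The windows follow RefSeq starts, which can differ from the ends of the gene positions given below. The EGLN3 window, chr14:33951025-33951324, lies well inside its gene span. Only 1 window was kept per symbol, the first by position, so other starts of these genes were not searched. The genes were chosen as HIF targets, so these matches are a description. They are letters in a short window and do not show binding.

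**Figure D1:**
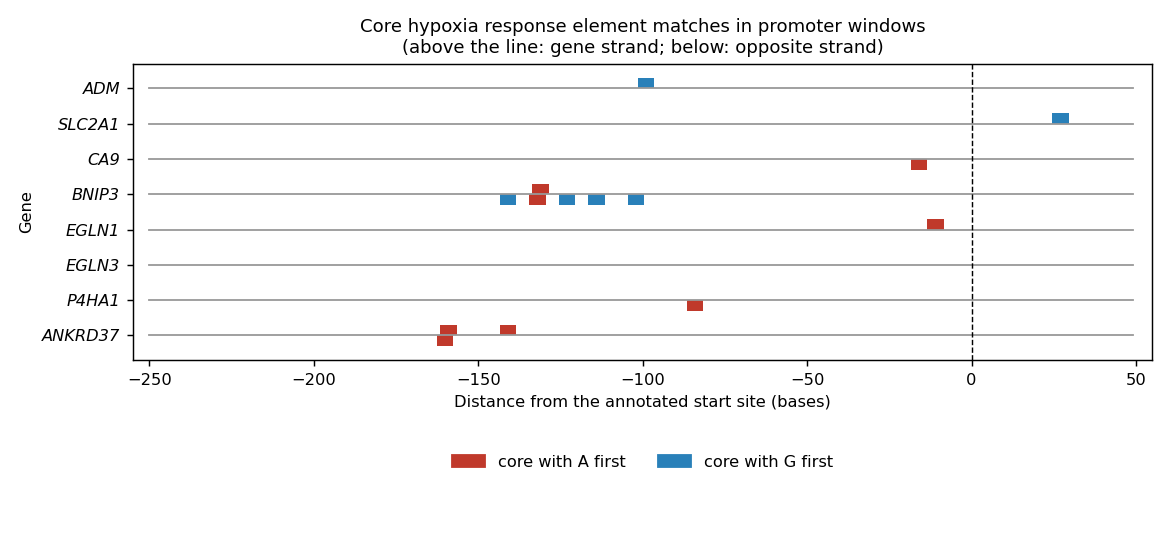
Positions of the core matches in the promoter windows of 8 members, as the distance in bases from the annotated start site; boxes above a line lie on the gene's strand and boxes below it on the opposite strand, with colour giving the first letter of the core. BNIP3 has 5 sites, ANKRD37 has 2, EGLN3 has 0 and the other genes have 1.

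The targeted gene was lower in every siRBM8A library. RBM8A was at 3.25, 2.23 and 3.38 FPKM (fragment counts scaled by exon length and by a factor for library size) in siRBM8A replicates 1, 2 and 3, against 15.3, 13.2 and 14.8 FPKM in siNC. The siRBM8A mean was 20.5% of the siNC mean (exact two-sided permutation p = 0.1, the smallest that 3 against 3 libraries allow). Gene-assigned fragments numbered 14838527 to 16561306 a library. At 2 kb of exon, 3 fragments then correspond to at most 0.0987 FPKM (counting error only). In bulk RNA, fewer cells of a type and less RNA per cell cannot be told apart. Of 10 epithelial markers 8 had a mean of at least 1 FPKM, with summed levels of 1711 to 2353 FPKM in siRBM8A and 1751 to 2214 FPKM in siNC, while CLDN3 and TFF3 were below that mean. Of 9 markers of immune, endothelial and stromal cells, PTPRC and DCN were listed at 0 in all libraries, COL1A1 and ACTA2 alone had a mean of at least 1 FPKM, and the list summed to 6.04 to 7.22 FPKM in siRBM8A and 4.95 to 7.05 FPKM in siNC. Neither list had a called gene, but ACTA2 was higher without overlap, at 2.72 ± 0.22 FPKM in siRBM8A and 1.84 ± 0.45 FPKM in siNC (SD, n = 3 each; log2 fold change 0.40, adjusted p = 0.144). Exons of other genes on the opposite strand cover 30.1% of the ACTA2 exon bases, so its value is uncertain. KRT7 was lower without overlap, at 1.42 ± 0.22 FPKM in siRBM8A and 2.15 ± 0.49 FPKM in siNC (log2 fold change -0.37, adjusted p = 0.180). Of all tested genes, 14.8% were higher and 16.5% lower without overlap. Blocking on the replicate number, ACTA2 was called upward, against 18.9% of tested genes. With that block 3 of 8 tested epithelial markers (CDH17, KRT7 and MUC1) were called downward, against 21.3%. After a correction for GC content KRT7 and MUC1 were called downward, against 17.6% of tested genes. With both, CDH17, KRT7, KRT8 and MUC1 were called downward, against 22.1%. The part of these markers in the results was not tested. Replicate 2 of each group stood apart from replicates 1 and 3. Across 12672 genes, its deviation from the mean of the other 2 replicates followed transcript GC content, at r = 0.74 in siRBM8A and 0.66 in siNC, a description over genes of the same libraries. The part of this GC trend in the results was not tested beyond the alternatives given beside them. Results are therefore also given with the replicate number as a block, which compares libraries of the same number, after a correction for GC content, and without both replicate 2 libraries.

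NDRG1 and ANKRD37 rose in siRBM8A cells, and 0 members fell. The other tested members had positive fold changes that missed the threshold, except EGLN1, whose fold change was negative. A gene was tested where its mean over the 6 libraries was at least 1 FPKM, and called at an adjusted p under 0.05 over all 12678 tested genes (limma on log2(FPKM + 1), Benjamini-Hochberg). Of the 10 members, 8 were tested, and CA9 and BNIP3 were below the filter. ADM passed it only through its siRBM8A libraries, so counts and medians over the 8 are descriptions only. The 2 upward calls compare with 2.41% of all tested genes called upward and 3.19% called downward (5.59% in either direction), and 4 of the 8 had an unadjusted p under 0.05, against 26.3% of tested genes. The siRBM8A and siNC libraries did not overlap for VEGFA, ADM, EGLN3, NDRG1 and ANKRD37, all higher in siRBM8A, and 14.8% of tested genes were higher without overlap. Within every replicate number the siRBM8A library was higher for 7 of the 8, against 32.4% of tested genes. The median log2 fold change was 0.31 over the 8 members and -0.01 over all tested genes.

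How many members were called changed between the alternatives. Blocking on the replicate number, 6 of the 8 were called upward (ANKRD37, NDRG1, VEGFA, EGLN3, P4HA1 and SLC2A1), against 18.9% of tested genes, and 0 downward. With the GC correction 3 were called upward, against 14.5% of tested genes, and with both 5, against 18.6%. Without both replicate 2 libraries 3 were called upward, against 6.41%. NDRG1 alone was called without a filter on low values, against 0.376% of genes, and with a mean of at least 5 FPKM, against 3.15%. The count was 0 without siRBM8A replicate 3, siNC replicate 1, siNC replicate 2 or siNC replicate 3, where the shares of all tested genes called upward were 0.0158%, 0.0554%, 0.519% and 0.0473%.

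**Figure D2:**
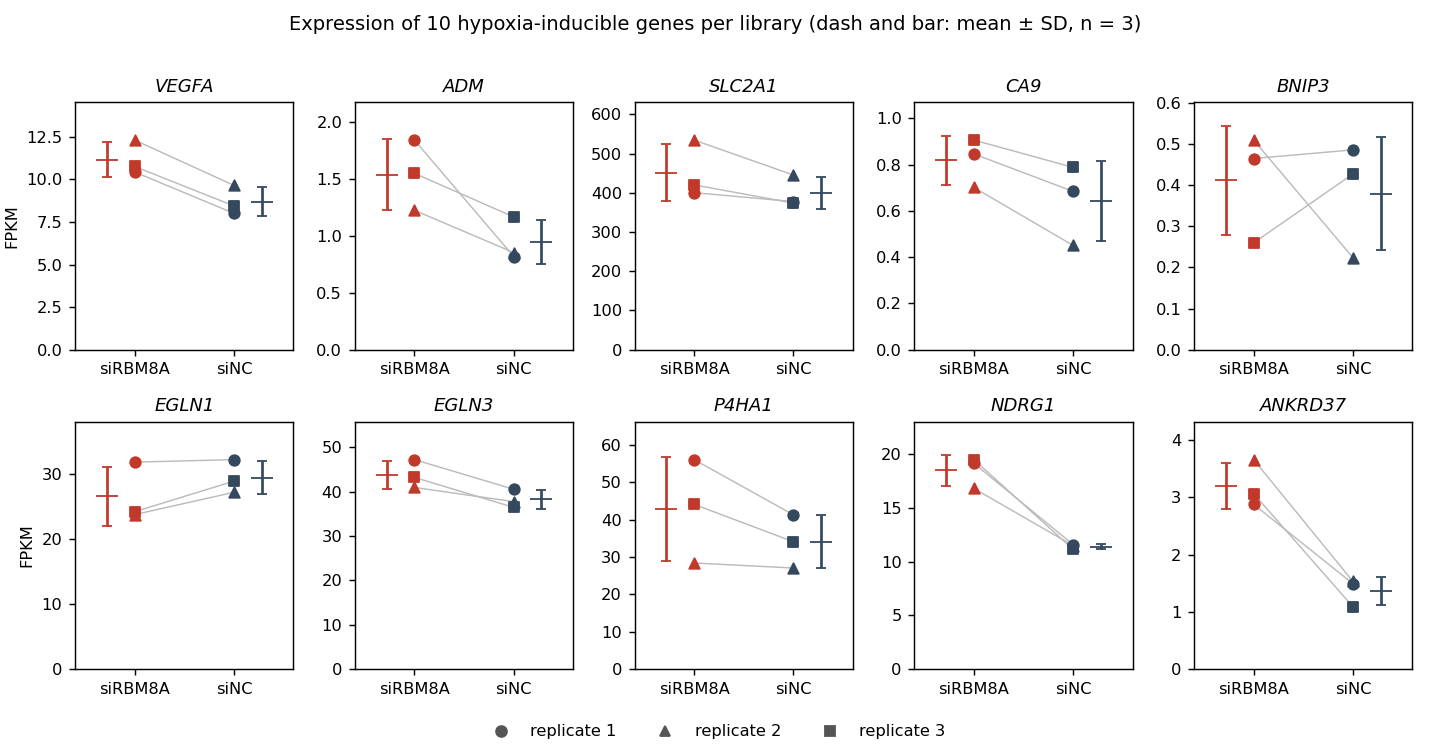
FPKM of the 10 members in each library, siRBM8A on the left and siNC on the right of each panel; marker shapes give the replicate number, grey lines join libraries of the same number, and the dash with bar is the mean ± SD (n = 3). NDRG1 and ANKRD37 separate the groups most clearly, SLC2A1 is highest in replicate 2 of both groups, and P4HA1 is lowest there.

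The members ranged from very abundant to barely detected (gene positions below are in GRCh38). In siNC the order of levels, per kilobase of exon, ran from SLC2A1 at 399 FPKM through EGLN3 (38.3), P4HA1 (34.2), EGLN1 (29.5), NDRG1 (11.4), VEGFA (8.70), ANKRD37 (1.37), ADM (0.946) and CA9 (0.641) to BNIP3 (0.379 FPKM). Between neighbours in this order, the siNC ranges overlapped for EGLN3 and P4HA1, for P4HA1 and EGLN1, for ANKRD37 and ADM, and for CA9 and BNIP3. In siRBM8A the order was the same, and the ranges of ANKRD37 and ADM, and of CA9 and BNIP3, no longer overlapped.

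VEGFA and ADM encode secreted signals to blood vessels, the main growth factor of new vessels and the vasodilator peptide adrenomedullin. VEGFA (ENSG00000112715, chromosome 6, 43770184 to 43786487, plus strand) was at 10.4, 12.3 and 10.8 FPKM in siRBM8A replicates 1, 2 and 3, against 8.0, 9.65 and 8.44 FPKM in siNC. Every siRBM8A library was above every siNC library, and replicate 2 was the highest in both groups. VEGFA had a log2 fold change of 0.33 (SE 0.11, 95% confidence interval 0.065 to 0.59, adjusted p = 0.125), which missed the threshold. Its same-numbered ratios were close to each other, at 0.34, 0.32 and 0.32 on the log2 scale, and with the replicate block the adjusted p was 0.00684. VEGFA was also called with the GC correction (log2 fold change 0.24, adjusted p = 0.00849) and without both replicate 2 libraries (adjusted p = 0.0496), and the alternatives ran from 0.00684 to 0.366. ADM (ENSG00000148926, chromosome 11, 10304680 to 10307397, plus strand) was low, at 1.84, 1.22 and 1.55 FPKM in siRBM8A, against 0.819, 0.854 and 1.17 FPKM in siNC. These values rest on 203 fragments in the siRBM8A libraries and 127 in the siNC libraries. The groups did not overlap, but the gap between siRBM8A replicate 2 and siNC replicate 3 was small, and the log2 fold change of 0.38 (SE 0.15, adjusted p = 0.167) was called in 0 alternatives.

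SLC2A1 encodes GLUT1, the basal glucose transporter, and was the most abundant member. SLC2A1 (ENSG00000117394, chromosome 1, 42925375 to 42959176, minus strand) was at 401, 535 and 420 FPKM in siRBM8A, against 378, 445 and 374 FPKM in siNC. The groups overlapped, because siNC replicate 2 exceeded siRBM8A replicates 1 and 3, while within each replicate number the siRBM8A library was higher. Its log2 fold change was 0.17 (SE 0.14, 95% confidence interval -0.16 to 0.50, adjusted p = 0.480), and 0.04 without siRBM8A replicate 2. With the replicate block the adjusted p was 0.0492, with the GC correction and the block it was 0.115, and the log2 fold change there was 0.09. The longest SLC2A1 transcript has a GC content of 54.8%.

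CA9, a cell-surface carbonic anhydrase that is among the most strongly hypoxia-induced genes in many tumours, and BNIP3, a receptor for the removal of mitochondria, were close to absent. CA9 (ENSG00000107159, chromosome 9, 35673856 to 35681159, plus strand) was at 0.846, 0.701 and 0.906 FPKM in siRBM8A, against 0.684, 0.451 and 0.788 FPKM in siNC, on 66 and 53 fragments in the groups. The groups overlapped. Exons of ARHGEF39 on the opposite strand cover 38.5% of the CA9 exon bases, so its value is uncertain: whether reads were assigned by strand was not given in the sources used here. ARHGEF39 was above CA9 in every library, at 2.84 ± 0.29 FPKM in siRBM8A and 2.88 ± 0.18 FPKM in siNC (SD, n = 3 each). How many CA9 fragments came from ARHGEF39 was not tested. BNIP3 (ENSG00000176171, chromosome 10, 131966455 to 131982013, minus strand) was at 0.464, 0.509 and 0.259 FPKM in siRBM8A, against 0.486, 0.224 and 0.427 FPKM in siNC, on 107 and 100 fragments. Its groups overlapped fully, and no test was run because its mean was below the filter. The table lists 39 BNIP3 pseudogenes, with which reads may be shared. Of these 26 were at 0 in all libraries, and BNIP3P11 alone had a mean of at least 1 FPKM, at 2.51 to 3.97 FPKM in siRBM8A and 4.68 to 5.77 FPKM in siNC.

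EGLN1 and EGLN3 encode the oxygen sensors PHD2 and PHD3, which hydroxylate HIF alpha subunits, and their fold changes had opposite signs. EGLN1 (ENSG00000135766, chromosome 1, 231363751 to 231425044, minus strand) was at 31.9, 23.8 and 24.2 FPKM in siRBM8A, against 32.3, 27.2 and 28.9 FPKM in siNC. The groups overlapped, since siRBM8A replicate 1 lay near the top of the siNC range. EGLN1 had a log2 fold change of -0.15 (SE 0.14, 95% confidence interval -0.48 to 0.18, adjusted p = 0.538), and it was called in 0 alternatives. EGLN3 (ENSG00000129521, chromosome 14, 33924231 to 34462774, minus strand) was at 47.2, 41.0 and 43.2 FPKM in siRBM8A, against 40.6, 37.8 and 36.5 FPKM in siNC. The groups did not overlap, although siRBM8A replicate 2 lay just above siNC replicate 1. EGLN3 had a log2 fold change of 0.19 (SE 0.10, adjusted p = 0.275), with an adjusted p of 0.0277 with the replicate block and 0.158 with the GC correction, in a range from 0.0274 to 0.605. Whether EGLN1 and EGLN3 differed in their response was not tested.

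P4HA1 encodes the catalytic subunit of collagen prolyl 4-hydroxylase, needed for stable collagen, and had the largest spread relative to its mean among the tested members, in each group. P4HA1 (ENSG00000122884, chromosome 10, 73007217 to 73096974, minus strand) was at 56.1, 28.4 and 44.1 FPKM in siRBM8A, against 41.3, 27.1 and 34.1 FPKM in siNC. Replicate 2 was the lowest in both groups, the reverse of SLC2A1, and the longest P4HA1 transcript has a GC content of 40.8%. Its log2 fold change was 0.29 (SE 0.26, 95% confidence interval -0.34 to 0.91, adjusted p = 0.530). It was 0.07 without siRBM8A replicate 1 and 0.55 without siRBM8A replicate 2. With the replicate block the adjusted p was 0.0393. With the GC correction the log2 fold change was 0.41 (adjusted p = 0.0725), and 0.00656 was the adjusted p with the block as well.

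NDRG1, a cytoplasmic stress-response protein induced by hypoxia and by differentiation, was the member with the smallest siNC spread relative to its mean. NDRG1 (ENSG00000104419, chromosome 8, 133237171 to 133302022, minus strand) was at 19.1, 16.8 and 19.5 FPKM in siRBM8A, against 11.6, 11.5 and 11.1 FPKM in siNC. All siRBM8A libraries were well above all siNC libraries, at 162% of the siNC level on average. NDRG1 rose by a log2 fold change of 0.65 (SE 0.096, 95% confidence interval 0.42 to 0.87, adjusted p = 0.0195). The log2 fold change ranged from 0.59 to 0.72 over 17 alternatives, and the adjusted p from 0.00260 to 0.133. The call was lost without siRBM8A replicate 3 (adjusted p = 0.126) and without siNC replicates 1, 2 or 3 (0.0920, 0.0633 and 0.133), while the fold change stayed at 0.61 to 0.66.

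ANKRD37, a small ankyrin repeat protein of poorly known function whose gene is a direct HIF target, had the highest fold change of the tested members. ANKRD37 (ENSG00000186352, chromosome 4, 185396021 to 185400628, plus strand) was at 2.88, 3.66 and 3.06 FPKM in siRBM8A, against 1.49, 1.53 and 1.09 FPKM in siNC, on 399 and 174 fragments in the groups. The lowest siRBM8A library was far above the highest siNC library, and the siRBM8A mean was 233% of the siNC mean. ANKRD37 rose by a log2 fold change of 0.82 (SE 0.13, 95% confidence interval 0.51 to 1.14, adjusted p = 0.0238). As a low gene it is understated by the added 1 FPKM: the log2 fold change was 1.17 with a pseudocount of 0.1 and 1.26 on the recovered fragments. The adjusted p ranged from 0.00383 to 0.130 over 16 alternatives, and the call was lost without a filter on low values (adjusted p = 0.0715), without siRBM8A replicate 3 (0.124) and without siNC replicates 1, 2 or 3 (0.0908, 0.0622 and 0.130). Exons of UFSP2 on the opposite strand cover 35.2% of the ANKRD37 exon bases, so the ANKRD37 value, like that of CA9, is uncertain. UFSP2 was lower in every siRBM8A library than in any siNC library but missed the threshold, at 3.00 ± 0.45 FPKM in siRBM8A and 3.94 ± 0.40 FPKM in siNC (SD, n = 3 each; log2 fold change -0.31, adjusted p = 0.181).

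**Figure D3:**
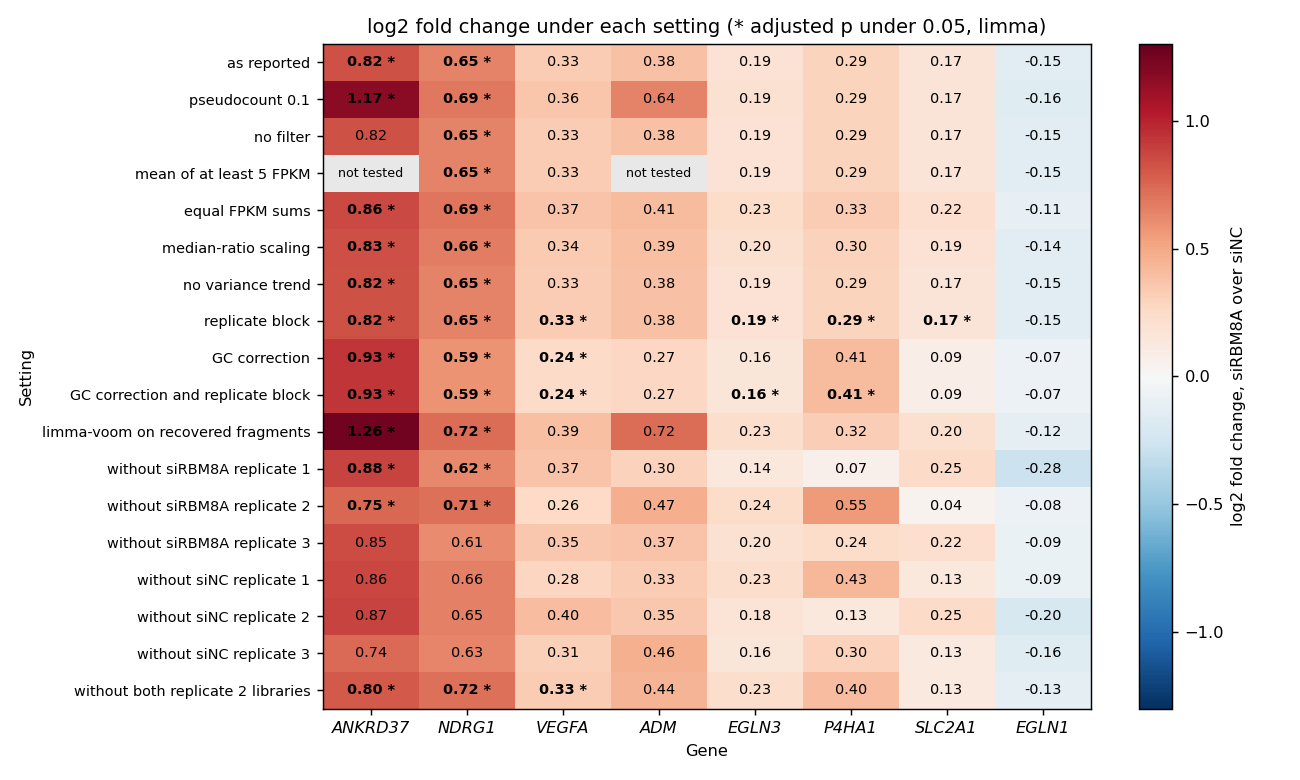
log2 fold change of the 8 tested members (columns) as reported and under each alternative (rows), with an asterisk where the adjusted p was under 0.05 and grey where a gene was below the filter. NDRG1 and ANKRD37 keep fold changes of 0.59 to 0.72 and 0.74 to 1.26, all 8 members keep their sign in every row, and calls disappear in 4 of the rows that leave out 1 library.

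The genes whose profile over the 6 libraries was most like that of ANKRD37, by Pearson correlation of log2(FPKM + 1) among 6940 other protein-coding genes averaging 5 FPKM or more, were C1orf109, SKI, AHSA1, CYP1A1 and CEP85. Their r was 0.99 each, and 505 of the genes ranked reached 0.9, so with 6 libraries in 2 groups a high r was common. CYP1A1, a cytochrome P450 enzyme, averaged 10.4 ± 0.60 FPKM in siRBM8A and 6.61 ± 0.50 FPKM in siNC (SD, n = 3 each). SKI and CYP1A1 rose (log2 fold changes 0.52 and 0.58, adjusted p = 0.0310 and 0.0273), while C1orf109, AHSA1 and CEP85 missed the threshold. Of all tested genes 2.41% were called upward. These genes were chosen for their likeness to ANKRD37, which was higher in siRBM8A, so their higher levels follow from the choice. Both calls were lost without siRBM8A replicate 3 (0.145 and 0.138) and without siNC replicates 1, 2 or 3 (0.0688 to 0.177 for SKI, 0.0629 to 0.164 for CYP1A1), that of SKI also without siRBM8A replicate 1 (0.0562) and that of CYP1A1 without a filter (0.0538).

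Among the regulators of HIF itself, CITED2 and SIAH2 rose in siRBM8A and 0 of the 14 tested genes fell; HIF1A had an adjusted p of 0.0515 for a lower level. CITED2, which competes with HIF1A for the coactivators CBP and p300, was at 32.1, 39.0 and 33.5 FPKM in siRBM8A, against 21.1, 24.2 and 20.7 FPKM in siNC (log2 fold change 0.64, SE 0.12, adjusted p = 0.0313). SIAH2, a ubiquitin ligase that targets EGLN enzymes for destruction, was at 19.9, 18.0 and 18.1 FPKM in siRBM8A, against 13.1, 13.8 and 12.9 FPKM in siNC (log2 fold change 0.46, SE 0.091, adjusted p = 0.0378). In both genes all siRBM8A libraries were above all siNC libraries. The 2 of 14 compare with 2.41% of tested genes called upward, and the other 3 of the 17 regulators, HIF3A, ARNT2 and SIAH1, were below the filter. This list was chosen with earlier results of these data known, so its counts and median are descriptions only. The calls of CITED2 and SIAH2 were lost without siRBM8A replicate 3 (adjusted p = 0.138 and 0.157), without siNC replicate 1 (0.135 and 0.157), without siNC replicate 2 (0.0629 and 0.0820) and without siNC replicate 3 (0.170 and 0.199). That of SIAH2 was also lost without siRBM8A replicate 1 (0.0711) and with the GC correction (0.0525). Without a filter on low values 0 regulators were called, against 0.376% of genes called upward and 0.47% downward.

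HIF1A, the oxygen-labile subunit, was at 28.9, 19.7 and 26.8 FPKM in siRBM8A, against 48.1, 36.6 and 45.9 FPKM in siNC. Every siRBM8A library was below every siNC library, and replicate 2 was the lowest of each group. HIF1A had a log2 fold change of -0.78 (SE 0.17, 95% confidence interval -1.19 to -0.37, adjusted p = 0.0515). HIF1A was called with a mean of at least 5 FPKM (adjusted p = 0.0422) and with the replicate block (0.00149). It was also called with the GC correction (log2 fold change -0.57, adjusted p = 0.000751) and with the correction and the block (0.00130). Without both replicate 2 libraries it was called too (0.0149). Over the alternatives its adjusted p ran from 0.000751 to 0.209. The other tested subunits, EPAS1 and ARNT, had log2 fold changes of -0.26 and -0.16 (adjusted p = 0.137 and 0.287), and neither had overlapping groups. EPAS1 was at 8.34 ± 0.55 FPKM in siRBM8A and 10.2 ± 0.44 FPKM in siNC (SD, n = 3 each), and with the replicate block its adjusted p was 0.0176.

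The remaining regulators did not pass the test. The hydroxylases EGLN2 and HIF1AN, which blocks coactivator binding to HIF alpha, had log2 fold changes of -0.29 and -0.33 (adjusted p = 0.131 and 0.0837). Exons of the read-through gene RAB4B-EGLN2, itself listed at 0, cover 30.6% of the EGLN2 exon bases on the same strand, so the EGLN2 value is uncertain. In the VHL ligase, the log2 fold changes were -0.47 for ELOC, -0.32 for CUL2, -0.16 for RBX1, -0.05 for VHL and 0.06 for ELOB, and those of VHL and ELOB changed sign in some alternatives. The coactivator genes CREBBP and EP300 had log2 fold changes of 0.31 and 0.15 (adjusted p = 0.185 and 0.382). With the replicate block 3 of the 14 were called upward (CITED2, SIAH2 and CREBBP), against 18.9% of tested genes, and 6 downward (HIF1A, EPAS1, EGLN2, HIF1AN, ELOC and CUL2), against 21.3%. The median log2 fold change of the 14 was -0.16. Of the 14, 7 were lower and 3 higher without overlap of the groups, where the shares of all tested genes were 16.5% and 14.8%.

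**Figure D4:**
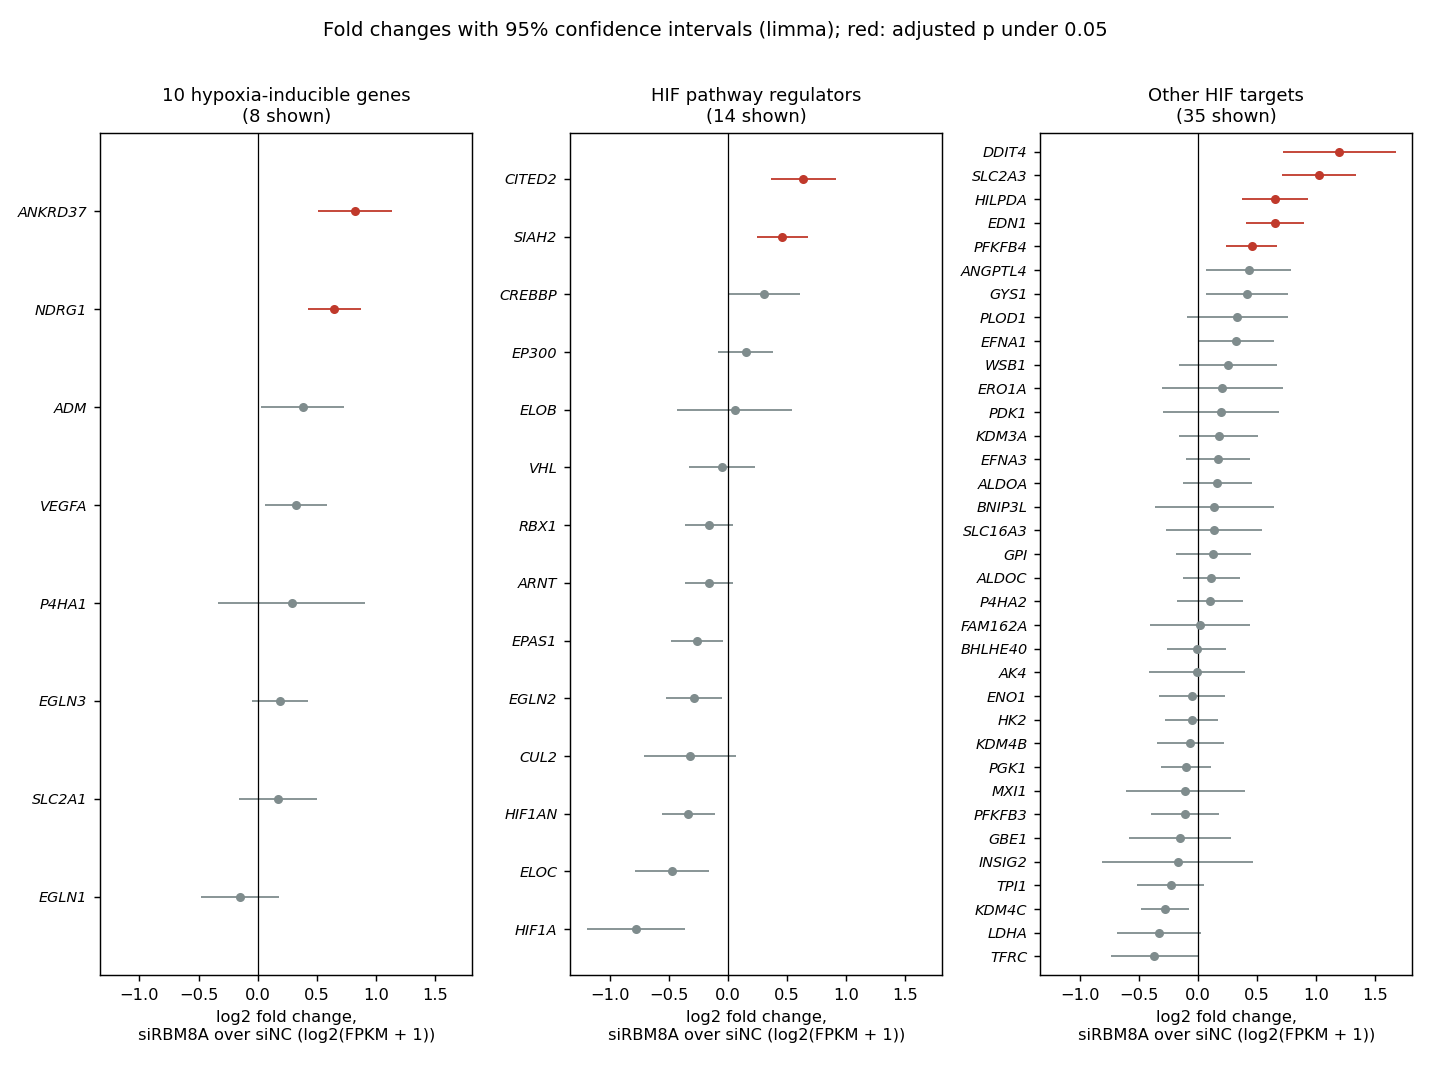
log2 fold change of siRBM8A over siNC with its 95% confidence interval for the tested members (left), regulators of HIF (middle) and all but 1 of the tested other HIF targets (right), sorted within each panel; red marks an adjusted p under 0.05 (limma). The 2 called members, 2 called regulators and 5 called other targets all lie above 0, and HIF1A has the lowest value of the regulators at -0.78.

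Of 52 other known HIF targets 36 were tested, and 5 rose and 0 fell, against 2.41% and 3.19% of all tested genes. An unadjusted p under 0.05 was found for 10 of the 36, against 26.3% of tested genes, and 21 fold changes were positive and 15 negative. The median log2 fold change of the 36 was 0.12. It was 0.035 without siRBM8A replicate 1, 0.067 with the GC correction and 0.17 with limma-voom on the recovered fragments. This list too was chosen with earlier results of these data known, so its counts and medians are descriptions only. SLC2A3, which encodes the glucose transporter GLUT3, was at 228, 168 and 203 FPKM in siRBM8A, against 102, 90.3 and 98.7 FPKM in siNC (log2 fold change 1.03, SE 0.13, adjusted p = 0.0139). All siRBM8A libraries were far above all siNC libraries, while the other glucose transporter SLC2A1, described above, missed the threshold. SLC2A3 may share reads with its near-identical copy SLC2A14, which was at 0.188 to 0.354 FPKM in siRBM8A and 0.0859 to 0.205 FPKM in siNC. EDN1, the vasoconstrictor endothelin, was at 30.6, 26.0 and 25.2 FPKM in siRBM8A, against 17.5, 16.7 and 16.6 FPKM in siNC (log2 fold change 0.65, adjusted p = 0.0240). HILPDA, which promotes lipid droplet storage, was at 10.4, 8.04 and 9.92 FPKM in siRBM8A, against 5.20, 5.82 and 5.84 FPKM in siNC (log2 fold change 0.65, adjusted p = 0.0313). In both genes the groups were separate.

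PFKFB4, which makes a regulator of glycolysis, and DDIT4, an inhibitor of mTORC1, rose by log2 fold changes of 0.46 and 1.20 (adjusted p = 0.0384 and 0.0270). The antisense gene DDIT4-AS1, listed at 0, covers 41.2% of the DDIT4 exon bases, so its value is uncertain. Among the 15 tested genes of glucose metabolism SLC2A3 and PFKFB4 were called, and the log2 fold changes ran from -0.33 for LDHA (adjusted p = 0.220) to 1.03 for SLC2A3, with a median of 0.11. The regulators and others ran from -0.37 for TFRC to 1.20 for DDIT4. With the replicate block 11 of the 36 were called upward, against 18.9%, and 5 downward, against 21.3%. The 5 upward calls dropped to 3 without siRBM8A replicate 1 (against 1.42% of tested genes), where HILPDA and PFKFB4 were lost, and to 0 without siRBM8A replicate 3 or without siNC replicates 1, 2 or 3. The adjusted p of SLC2A3 in those 4 was 0.0522 to 0.102, and PFKFB4 also missed the threshold with the GC correction (0.0730). Either core element was present in 39 of the 45 other targets matched to a promoter window and in 9 of 14 matched regulators, against 47.8% of all windows.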

How the data were processed

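The labels' protocols describe poly-A selection, fragmentation and PCR amplification of RNA from 6 AGS cultures. The authors deposited FPKM for 58735 genes, 1 column per library. HISAT2, StringTie and GRCh38 are named, with no role or order, per the submitters' processing notes. Strand setting, filters and multi-mapping treatment were not given in the sources used here. Groups and replicate numbers came from the sample titles.

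All gene identifiers matched GENCODE 29, which gave coordinates, exon lengths and transcript GC content. Multiplied by exon length and divided by the worth of 1 fragment in its library, 100% of the FPKM above 0 came out whole (tolerance 0.001 fragments), which gave the fragments behind each value. The factor for library size was 0.972 (siNC replicate 2) to 1.05 (siRBM8A replicate 1) times the gene-assigned fragments. How that factor was set was not given in the sources used here.

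Group differences in log2(FPKM + 1) were tested with limma 3.58.1 (R 4.3.3; two-sided, mean-dependent variance prior) over the 12678 genes averaging 1 FPKM or more. A call needed a p below 0.05 after Benjamini-Hochberg adjustment. Tables and plots used Python 3.11.15, pandas 2.3.3, numpy 2.4.6 and matplotlib 3.10.9. The test was checked on simulated data with independent noise in each gene and library. That check held no GC trend and no shared deviation of same-numbered libraries, so it does not cover them. Alternatives covered pseudocount, filter (recomputed where libraries were left out), scaling, variance trend, replicate block, GC correction (loess, span 0.3, which takes out real GC-related change too), limma-voom on the fragments, and leaving out libraries. Leaving out both replicate 2 libraries was added after the data were seen.

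Libraries with the same number deviated together from their group means, at correlations across genes of 0.507, 0.663 and 0.102 for replicates 1, 2 and 3, all above 0.1. Deviations from a group mean cancel out over its replicates, so these correlations are not independent of each other. That of replicate 2 also holds the GC trend given above. Having passed the limit of 0.1, the numbers were used as a block in alternative fits. The fit behind the reported calls left the libraries unpaired. No label states a shared day or passage, so the pairing rests on the data, and it is weak for replicate 3: siRBM8A replicate 3 correlated more with siNC replicate 1 (0.187) than with siNC replicate 3, and siNC replicate 3 more with siRBM8A replicate 1 (0.258). Fragment counts of libraries within a group differed by a chi-square of 4.29 to 54.6 per degree of freedom, so no 2 libraries agreed within sampling noise.

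The members, the gene lists and the motif were chosen with earlier results of these data known. Named genes are RBM8A, the members, the listed regulators, up to 6 called genes of the other targets and the ends of the role groups described, and the 5 genes most like the member with the largest fold change. ACTA2, KRT7, KRT8, CDH17, MUC1, UFSP2, SLC2A14, ARHGEF39, BNIP3P11, DDIT4-AS1 and RAB4B-EGLN2 were named after their values were seen. Values of 1 gene among the other targets are not reported here.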

Additional observations from a re-analysis of the deposited data

How the results depend on the processing

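Depth limits CA9, BNIP3 and ADM, which rest on at most 85 fragments a library. It also limits ANKRD37, at 64, 63 and 47 fragments in siNC replicates 1, 2 and 3 and 126, 153 and 120 in siRBM8A. Over all tested genes 709 were called, 305 upward and 404 downward, a split that was 468 and 325 with equal FPKM sums and 558 and 457 with limma-voom. The count was 268 without a filter, 5096 with the replicate block, 4077 with the GC correction, 5159 with both, 1803 without both replicate 2 libraries, and 2 to 622 when 1 library was left out. Of the members, 2 were called upward, against 1 without a filter, 1 with a mean of at least 5 FPKM (ANKRD37 was then not tested), 6 with the replicate block, 5 with the GC correction and the block, and 0 to 2 with 1 library left out. The 2 upward calls among regulators became 0 without a filter and 0 to 2 with 1 library left out. Their 0 downward calls became 1 with a mean of at least 5 FPKM, 6 with the replicate block, 6 with the GC correction, 6 with both and 2 without both replicate 2 libraries. The shares of all tested genes called downward in those settings were 4.57%, 21.3%, 17.6%, 22.1% and 7.77%. The 5 upward calls among other targets became 2 without a filter, 11 with the replicate block, 12 with the GC correction, 13 with both and 0 to 5 with 1 library left out. Their 0 downward calls became 5, 7 and 7 with the block, the GC correction and both, against 21.3%, 17.6% and 22.1% of all tested genes. The shares of all tested genes called upward were 18.9%, 14.5% and 18.6% in those settings and 0.376% without a filter. With 1 library left out, 0.0158% to 2.04% of all tested genes were called upward. The log2 fold change of RBM8A was -2.05 to -1.83 with 1 library left out, with adjusted p values of 0.0549 without siRBM8A replicate 3 and 0.0502 without siNC replicate 3. The cause of these changes was not tested. All 8 tested members kept their sign in every alternative run. VHL (-0.05) turned to 0.037 without siRBM8A replicate 2, 0.0056 without siNC replicate 3 and 0.0054 without both replicate 2 libraries, with -0.13 to 0.037 over the single libraries left out. ELOB (0.06) turned to -0.083 with the GC correction, with or without the block, -0.14 without siRBM8A replicate 2, -0.018 without siNC replicate 1 and -0.018 without both replicate 2 libraries, with -0.14 to 0.22 over the single libraries left out. Of 541 single-gene values under the alternatives, over 32 genes, 427 kept direction and call, 57 lost a call, 49 gained one and 8 turned.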
